A study of Homo sapiens with 8 samples.

Results

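RNA of PC3 cells treated with bisamide for 24 h was compared with RNA of mock-treated PC3 cells on 1 two-colour Agilent array, 1 of the 8 arrays in the series. The array was chosen by its treatment label, and all of its genes were read. Of 43317 genes on the array, 19241 were well above background in both channels, and these are called measured genes. PC3 is a prostate cancer line that grows without androgen. Bisamide, code name CCT251236, is a small molecule known for blocking the response driven by heat shock factor 1 (HSF1), and it binds pirin (PIR), a nuclear protein that carries iron. The labels give no dose. The mock sample (Cy3) is labelled no transfection, and the treated sample (Cy5) lists bisamide as its transfection although it is a compound. Whether the mock cells received the solvent is not given in the sources used here. The other 7 arrays, on the same slide, held bisamide for 48 h in PC3 and 6 microRNA (miRNA) transfections, each against mock RNA of the same line. The bladder line T24 received miR-140-3p or miR-140-5p, the kidney line 786-O received miR-532-3p or miR-532-5p, the prostate line C4-2 received miR-199-3p, and PC3 received miR-125b-1-3p. The array at 24 h had no replicate and no dye swap, so no test was made and the precision of each value is limited by the number of arrays.

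Cells that lack an amino acid, make too little heme, sense double-stranded RNA or hold misfolded protein in the endoplasmic reticulum phosphorylate the translation factor eIF2. General translation then falls while the transcription factor ATF4 is translated more, and ATF4 with its partners of the C/EBP family switches on genes that import and make amino acids and charge tRNA. Heat and other damage to cytosolic protein act through HSF1 instead, which switches on the chaperones of the HSP70, HSP90, HSP60 and HSP40 families. PIR has been described as a coactivator of NF-kB and as a target of the antioxidant factor NRF2.

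Each value is a log2 ratio, treated over mock RNA, normalized within its array, unless a raw signal is named. Loess normalization sets the ratio of most genes to 0 at each intensity, and so a bright gene of equal level in both RNAs can have unequal raw signals. HSF1 had a raw signal of 4926 in the mock and of 10235 with bisamide, for instance, and a ratio of 0.04. The 300 probes printed as 10 spots each had a median SD of 0.053 between their spots at 24 h. Among 4459 genes with more than 1 measured probe, the probes of a gene had a median SD of 0.072. The SD over all measured genes was 0.18. The mock at 24 h differed from the PC3 mock at 48 h with an SD of 0.16 over 17772 genes, and from the PC3 mock of the miR-125b-1-3p array with an SD of 0.25. None of these values measures the spread between cultures treated alike. Of 8 marker genes of PC3, all were measured, with ratios of −0.06 to 0.40. The androgen-regulated prostate marker KLK3 was not above background in either channel. Of 11 immune, endothelial and fibroblast markers on the array, 5 were measured, with raw mock signals of 29.3 to 74.0 and ratios of −0.11 to 0.18, and COL3A1, DCN and LUM were above background in neither channel. In RNA of whole cultures, fewer cells of a kind and less RNA per cell cannot be told apart.

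More genes had higher than lower RNA with bisamide at 24 h past 2-fold, with the normalization used here and not with every other one. A ratio of 1.0 or more, meaning at least 2-fold, was reached by 35 measured genes (0.182%), and a ratio of −1.0 or less by 3 (0.0156%). The 35 higher genes held 20 of the 79 measured genes in a list of the ATF4 pathway, 6 transcripts of pseudogenes or without a usual symbol, and 9 others. The median of all measured genes was 0.01. With the scanner's own ratio, 95 genes were higher and 128 lower, so that 42.6% of them were higher in place of 92.1%, and all 35 and all 3 remained past the threshold. With plain background subtraction 59.3% were higher, with an offset of 0 it was 65.3%, with median centring, which moved the median of all genes to 0.45, it was 99.7%, with the ratio of the miR-125b-1-3p array taken off 63.7%, and against the Cy5 channel of that array 29.6%.

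**Figure D1:**
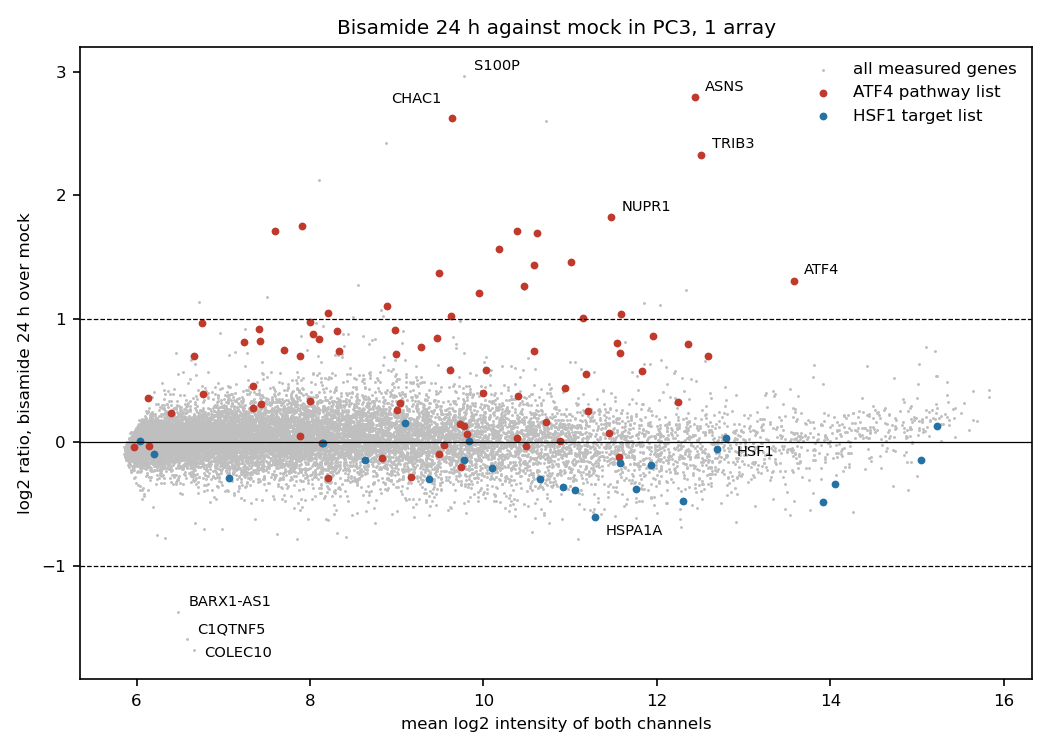
Each measured gene at 24 h of bisamide, with the mean log2 intensity of both channels on the x axis and the log2 ratio of bisamide over mock on the y axis. Genes of the ATF4 pathway list are red, HSF1 and its targets blue, and the dashed lines mark ratios of 1.0 and −1.0. S100P, ASNS and CHAC1 lie highest at 2.97, 2.80 and 2.63, and the 3 genes under −1.0 lie at low intensity.

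Transcription factors and regulators of the ATF4 pathway were higher with bisamide. Of 9 measured members, 8 were at 0.5 or more and 5 at 1.0 or more, where 202 of all measured genes (1.05%) were at 0.5 or more. ATF4 itself (chromosome 22, 39918577 to 39918636, GRCh37) had a raw signal of 5319 in the mock and 27808 with bisamide, and a ratio of 1.31, or 2.48-fold. On the 6 miRNA arrays its ratio ran from −0.49 through a median of −0.25 to 0.26, so the value at 24 h lay above all of them, and at 48 h of bisamide it was 0.80. TRIB3 (chromosome 20, 378107 to 378166), a pseudokinase that is induced by ATF4 and binds it, went from a raw signal of 1814 in the mock to 18432 with bisamide. Its ratio was 2.33, against −1.20 to −0.37 on the miRNA arrays and 1.23 at 48 h. NUPR1, a small stress-induced chromatin protein, was at 1.82, and JDP2, a leucine zipper protein that pairs with Jun and ATF proteins, at 1.71. CEBPB and CEBPG, C/EBP partners of ATF4, were at 1.21 and 0.85. DDIT3, which encodes CHOP, was at 0.97. ATF3 was at 0.82, but its 3 measured probes ran from 0.00 to 0.82. ATF5, a close relative of ATF4, was the member without a higher ratio, at −0.29.

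The kinases and phosphatases of eIF2 had ratios near 0. Of 7 measured members none reached 0.5, where 1.05% of all measured genes did, and the median of the 7 was 0.04. EIF2AK4, the kinase GCN2 that senses uncharged tRNA, was at 0.15, EIF2AK1, the heme-regulated kinase, at 0.14, EIF2AK3, the kinase PERK of the endoplasmic reticulum, at −0.03, and EIF2AK2, the kinase PKR, at −0.10. The lowest was EIF2S1, the phosphorylated subunit of eIF2, at −0.13. The highest was PPP1R15A, the inducible phosphatase subunit GADD34 that ATF4 and CHOP switch on, at 0.31. RNA levels do not measure the activity of these kinases.

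Enzymes of amino acid and one-carbon metabolism were higher as a group, with a median of 0.71. Of 14 measured members 9 were at 0.5 or more and 6 at 1.0 or more, against 1.05% and 0.182% of all measured genes. ASNS (chromosome 7, 97481461 to 97481520), asparagine synthetase, had a raw signal of 1460 in the mock and 20513 with bisamide. Its ratio was 2.80, or 6.94-fold. At 48 h the raw signals were 1915 and 13918 and the ratio 1.86, and on the miRNA arrays the ratio ran from −1.33 through a median of −0.45 to 0.08. In serine synthesis PHGDH, the first enzyme, was at 1.56, PSAT1, the second, at 1.70 and PSPH, the last, at 0.38. SHMT2 and MTHFD2, which pass the one-carbon unit of serine to folate in mitochondria, were at 1.04 and 1.26. CBS and CTH, the enzymes of the path from homocysteine to cysteine, were at 1.43 and 0.71. PYCR1, which makes proline, was at 0.70 with 1 probe and at 0.26 with its second, while ALDH18A1 upstream of it in the same path was at 0.00.

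Amino acid transporters had a median of 0.73, with 7 of 12 measured members at 0.5 or more, against 1.05% of all measured genes. SLC7A11, the cystine importer xCT, had raw signals of 518 in the mock and 3197 with bisamide and a ratio of 1.71, which was 0.73 at 48 h. Its partner chain SLC3A2, which it shares with SLC7A5, was at 0.91. SLC7A5, the importer of leucine and other large neutral amino acids, was at 1.37 and the glycine transporter SLC6A9 at 1.05. SLC1A5, SLC7A1 and SLC38A1, carriers of glutamine, arginine and small neutral amino acids, lay from 0.72 to 0.75. SLC36A4 was at −0.28 and lay below its 6 values on the miRNA arrays.

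Aminoacyl-tRNA synthetases charge tRNA with amino acids. Of the 20 cytosolic ones 12 were at 0.5 or more, against 1.05% of all measured genes, and 8 were not, with a median of 0.58. Of the 17 mitochondrial ones none was at 0.5 or more, and their ratios ran from −0.10 to 0.10 around a median of 0.01. GARS, WARS and MARS, for glycine, tryptophan and methionine, were at 1.1, 1.02 and 1.01. CARS, YARS, SARS, AARS, TARS and IARS lay between 0.74 and 0.92, and LARS, EPRS and NARS between 0.55 and 0.59. The other 8 lay from −0.12 for RARS to 0.16 for VARS, with no cytosolic synthetase between 0.16 and 0.55. GARS and KARS each encode the cytosolic and the mitochondrial enzyme. The second measured probe of MARS was at 0.44, and the 3 measured probes of SARS ran from 0.20 to 1.03. The 12 synthetases were at 0.35 to 0.83 at 48 h.

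Other outputs of the pathway had a median of 0.70, with 10 of 17 measured members at 0.5 or more, against 1.05% of all measured genes. CHAC1 (chromosome 15, 41248631 to 41248690), which breaks down glutathione, had raw signals of 210.2 in the mock and 2557 with bisamide. Its ratio was 2.63, or 6.18-fold, and its second measured probe gave 0.99. DDIT4, an inhibitor of mTORC1, was at 1.75 at 24 h and 0.57 at 48 h. GDF15, a stress-induced secreted factor, was at 1.46 at 24 h and 0.32 at 48 h. VEGFA, which drives vessel growth, was at 0.88, SESN2, a leucine sensor, at 0.70, the translation inhibitor EIF4EBP1 at 0.80, and the tRNA exporter XPOT at 0.77. ADM2 was at 0.96, but its second measured probe was at 0.07. ERO1L, an oxidase of the endoplasmic reticulum, was at −0.20.

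Several of these genes also differed between the mocks. The raw mock signal of GDF15 was 885 at 24 h, 3291 at 48 h and 6698 on the miR-125b-1-3p array. On the normalized scale its mock at 24 h lay 2.48 under the mean of the other PC3 mocks, so its level with bisamide at 24 h was still below theirs. The raw mock signals of DDIT4 were 72.8, 98.4 and 228 in the same order. Against the Cy5 channel of the miR-125b-1-3p array, GDF15 stood at −1.37 and DDIT4 at −0.14. In that same comparison ASNS stood at 2.64, CHAC1 at 2.12, TRIB3 at 1.87, S100P at 1.69 and ATF4 at 1.01, and the list as a whole kept a median of 0.50 over that of all genes. The part of the mock levels in the ratios of GDF15 and DDIT4 was not tested.

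**Figure D2:**
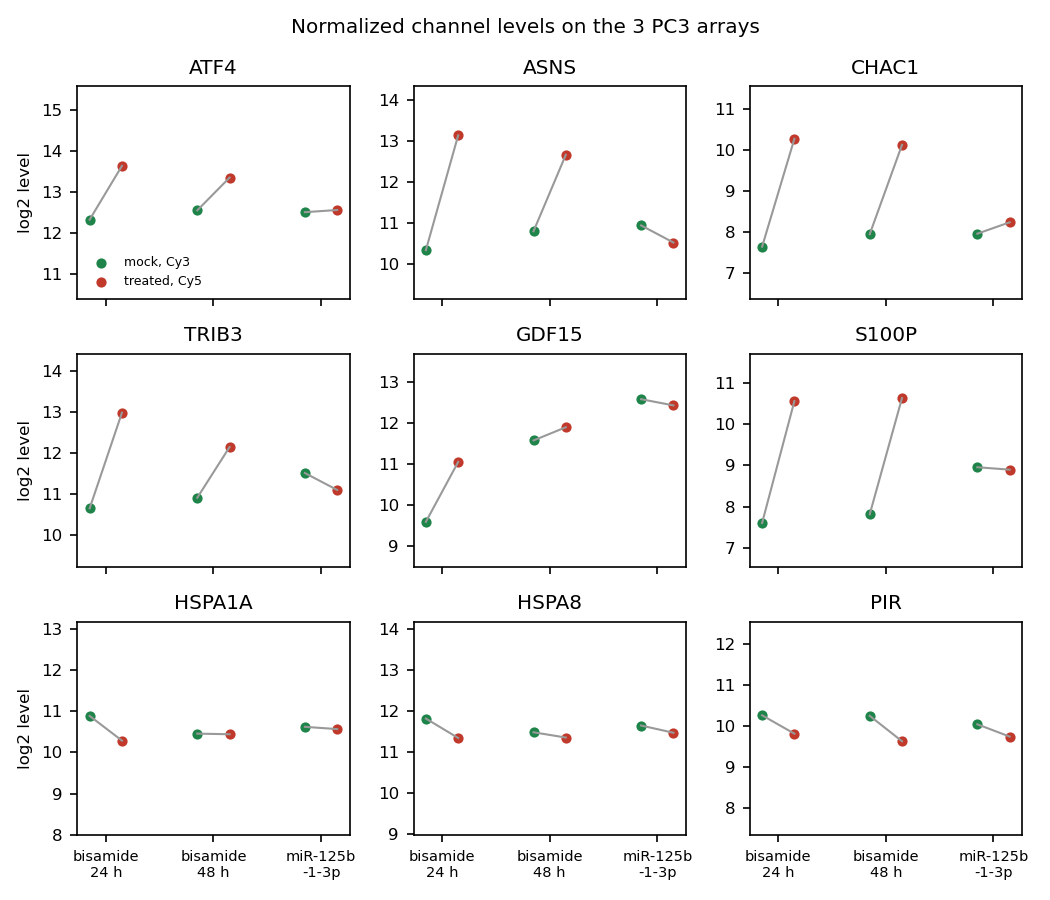
Normalized log2 levels of 9 genes in the mock (Cy3, green) and treated (Cy5, red) channels of the 3 PC3 arrays, with log2 level on the y axis and the array on the x axis. ASNS, CHAC1, TRIB3 and S100P are far higher in the red than in the green channel with bisamide and not with miR-125b-1-3p, and GDF15 has its lowest mock level at 24 h.

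Over the whole ATF4 pathway list, 46 of 79 measured members were at 0.5 or more and none was at −0.5 or less. The shares of all measured genes were 1.05% and 0.4%. The median of the list lay 0.69 above that of all genes. It was above it under all 14 settings tried, from 0.50 against the Cy5 channel of the miR-125b-1-3p array to 0.86 with median centring. Of the 79 members, 56 lay above all 6 miRNA arrays, where 2669 of all measured genes did (13.9%). The list was chosen with earlier results of these data known, which can favour its shares. On the miRNA arrays the median of the same 79 genes ran from −0.25 to 0.00. The median at 48 h was 0.43.

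Promoters of the ATF4 pathway are shown because the members moved together. That of S100P is shown as well, which is not in the list and had the highest ratio of all measured genes. A site of ATF4 with a C/EBP partner, the C/EBP-ATF response element, is commonly written TGATGNAA. Its letters, on either strand, were sought in the RefSeq promoters of GRCh38.p14, which reach from 250 bases before to 50 bases after the start of a gene. They stood in 1003 of 27305 promoters (3.67%), and in 217 of the 11348 of measured genes (1.91%). Of the 79 measured members 64 (81.0%) had a promoter in the table, and 16 of these held the letters (25%). Of the 35 genes at 1.0 or more, 23 (65.7%) had a promoter in the table, and no share is given for them because so many were without one. The letters began 68 bases before the start of ASNS, 209 before that of CHAC1, 123 before that of S100P and 187 before that of AARS1, the current symbol of AARS. The 250 bases before each start are given with the match in capitals, which reads as the reverse complement in CHAC1, S100P and AARS1.
ASNS (chr7:97872409-97872658, minus strand): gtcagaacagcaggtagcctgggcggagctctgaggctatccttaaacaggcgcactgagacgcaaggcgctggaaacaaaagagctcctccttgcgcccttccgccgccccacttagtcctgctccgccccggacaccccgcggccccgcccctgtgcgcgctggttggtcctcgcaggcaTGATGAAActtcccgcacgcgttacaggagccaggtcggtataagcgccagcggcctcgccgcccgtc
CHAC1 (chr15:40953221-40953470, plus strand): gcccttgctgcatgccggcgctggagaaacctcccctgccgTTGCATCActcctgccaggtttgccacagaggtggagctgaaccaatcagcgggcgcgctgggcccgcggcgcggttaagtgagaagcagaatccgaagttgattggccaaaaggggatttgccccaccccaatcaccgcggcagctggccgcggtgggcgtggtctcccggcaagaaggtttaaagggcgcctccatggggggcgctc
S100P (chr4:6693628-6693877, plus strand): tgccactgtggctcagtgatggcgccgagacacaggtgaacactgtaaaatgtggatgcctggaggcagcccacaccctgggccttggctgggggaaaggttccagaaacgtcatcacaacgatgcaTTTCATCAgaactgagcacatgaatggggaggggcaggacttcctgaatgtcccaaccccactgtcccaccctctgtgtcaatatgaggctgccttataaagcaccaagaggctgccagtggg
AARS1 (chr16:70289507-70289756, minus strand): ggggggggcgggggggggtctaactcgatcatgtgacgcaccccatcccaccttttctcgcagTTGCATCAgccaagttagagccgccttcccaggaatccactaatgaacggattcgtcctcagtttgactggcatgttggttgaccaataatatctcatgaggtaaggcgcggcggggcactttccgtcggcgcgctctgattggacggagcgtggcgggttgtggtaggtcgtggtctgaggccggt

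S100P and ASNS hold the same 8 letters, TGATGAAA, on opposite strands, and CHAC1 and AARS1 hold TGATGCAA. Among the other synthetases the letters stood in the promoters of CARS1, IARS1, MARS1, NARS1 and TARS1, which were all at 0.5 or more. Elsewhere in the list they stood in those of ATF3, BCAT1, GOT1, MTHFD1L, PPP1R15B, SLC38A1, SLC3A2 and SLC7A1, with ratios of 0.04 to 0.91. Outside it they stood in many more promoters. Of these, HERPUD1, SLITRK6, YARS2, HSPA4L and NUP153 are named here, with ratios of 0.81, 1.02, −0.08, −0.29 and −0.38. Of all 217 measured genes with the letters, 163 had ratios of −0.25 to 0.25. A match is a run of letters and was not read as a bound site, and no match says only that these letters are not in this window.

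Higher signals of pseudogene probes accompanied those of ASNS and ATF4. The scanner files describe ENST00000518311 and ENST00000511103 (chromosome 8, 47491130 to 47491719 and 47610171 to 47610230) as asparagine synthetase pseudogenes 1 and 4, and FLJ43315 as a further asparagine synthetase pseudogene. They stood at 2.6, 2.42 and 1.14, beside 2.80 for ASNS. XLOC_l2_014504, a long noncoding transcript from the same chromosome, was at 2.12. ENST00000443279 and ENST00000433309, described as ATF4 pseudogenes 1 and 3, stood at 1.23 and 1.07 beside 1.31 for ATF4. At 48 h the 3 ASNS pseudogene probes were at 1.82, 1.54 and 0.58 and the 2 of ATF4 at 0.61 and 0.65. Near-identical copies can share signal with their parent gene on a 60-base probe, so these values are uncertain as measures of the pseudogenes. None of them is a member of the ATF4 pathway list.

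Among the 9 higher genes outside the list S100P had the highest ratio. It was also above ASNS here, but below it with median centring, less the median of the miRNA arrays, less the ratio of the miR-125b-1-3p array and against the Cy5 channel of that array. S100P (chromosome 4, 6698819 to 6698878) encodes a small calcium-binding protein that is found in many carcinomas. It had raw signals of 203.6 in the mock and 3194 with bisamide at 24 h, and of 226 and 3158 at 48 h. Its ratios were 2.97, or 7.82-fold, and 2.83. On the miR-125b-1-3p array, also in PC3, the raw signals were 591 and 950 and the ratio −0.06. On the normalized scale the mock at 24 h lay 0.78 under the mean of the other PC3 mocks, and against the Cy5 channel of that array S100P stood at 1.69. Only 2 of the 6 miRNA arrays measured it in both channels, the other being that of C4-2, where it was at −1.29. Of the other 10 measured S100 genes, the next was S100A2 at 0.38, and S100A10 was the lowest at −0.14.

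ITGB4, the integrin chain of hemidesmosomes, was at 1.24 at 24 h and 1.42 at 48 h, against −0.25 to 0.04 on the miRNA arrays. In the same list of adhesion and motility genes the integrin chain ITGA3 was at 0.47. MMP1, a collagenase, was at 1.02, but it reached 1.22 on a miRNA array, and in the Cy5 channel it stood 0.82 under that of miR-125b-1-3p. ULBP1, a ligand of the killer cell receptor NKG2D, was at 1.18, the long noncoding RNA NEAT1 of the paraspeckle at 1.13, the EGFR inhibitor ERRFI1 at 1.12, the adhesion protein AMIGO2 at 1.27 and the stress-induced FAM129A, now NIBAN1, at 1.0. SLITRK6 was at 1.02 with 1 probe and at 0.17 with its second. The 3 measured probes of NEAT1 ran from 0.81 to 1.13. Of the 35 higher genes, chosen on their values at 24 h, 14 were at 1.0 or more and 32 at 0.5 or more at 48 h.

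**Figure D3:**
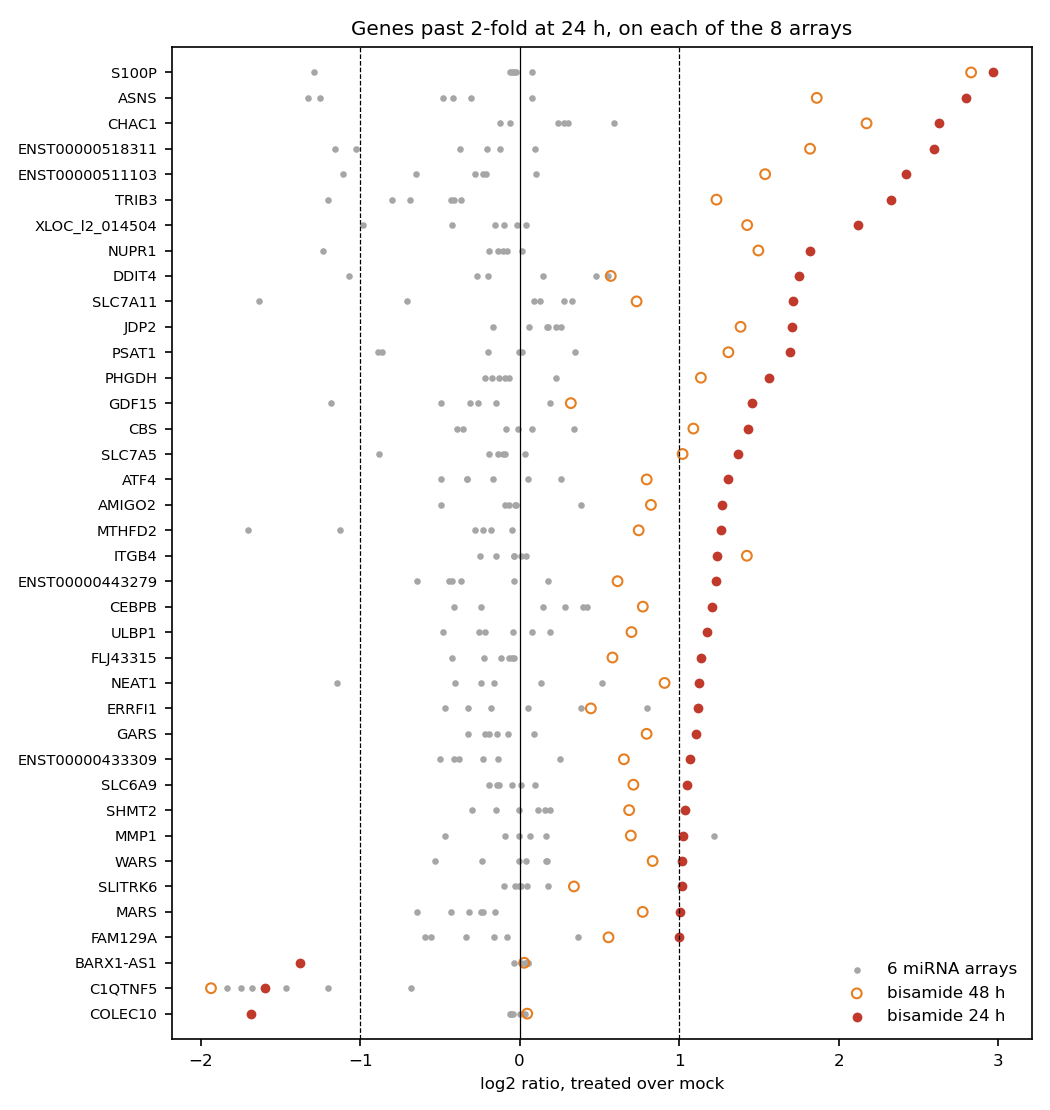
The 38 genes past 2-fold at 24 h of bisamide, with their log2 ratio on the x axis at 24 h (red), at 48 h (open orange) and on the 6 miRNA arrays (grey). The 35 higher genes were chosen on their values at 24 h, which favours a place to the right. Of them 34 lie right of all their grey points at 24 h, against 13.9% of all measured genes, and MMP1 does not. C1QTNF5 lies among its grey points, and COLEC10 and BARX1-AS1 lie near 0 on all other arrays.

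The 3 genes under −1.0 were dim. COLEC10 (chromosome 8, 120118876 to 120118935), a secreted lectin, had raw signals of 124 in the mock and 27.3 with bisamide and a ratio of −1.68. Its raw mock signal on the other 7 arrays was 19.2 to 23.1, and it was measured in both channels on none of them. BARX1-AS1 (chromosome 9, 96720145 to 96720204), a noncoding transcript, had 95.8 in the mock and 25.9 with bisamide and a ratio of −1.38, and 19.2 to 22.7 in the mocks of the other arrays. For both, then, the mock at 24 h stood apart from 7 other mocks, and with bisamide the signal was near theirs. C1QTNF5 was at −1.59 at 24 h, −1.93 at 48 h and −1.84 to −0.68 on the miRNA arrays. Among 106 genes measured in Cy3 alone, ACTL8, a cancer testis gene, was at least 2.67-fold lower, with a median fitted ratio of −1.43 on the miRNA arrays. No gene measured in Cy5 alone, of 3428, had a bound of 0.5 or more.

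HSF1 and its targets lay slightly below other genes, except with median centring, where they lay above. Of 24 measured members 19 were below 0, where 8809 of 19241 measured genes were, and 1 was at −0.5 or less, where 77 of all measured genes were (0.4%). Their median was −0.18, or −0.19 relative to all genes. Relative to all genes it was −0.25 with the scanner's own ratio and −0.04 against the Cy5 channel of the miR-125b-1-3p array, and its sign turned with median centring, to 0.08. Below all 6 miRNA arrays lay 5 of the 24, where 2661 of all measured genes did (13.8%). The medians of the same genes on the miRNA arrays ran from −0.12 to 0.04, and the median at 48 h was −0.07.

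HSPA1A, the inducible HSP70, had raw signals of 2228 in the mock and 2748 with bisamide at 24 h, and of 1561 and 2874 at 48 h. Its ratio was −0.60 at 24 h, or 0.22 with median centring, which moved the median of all measured genes to 0.45. It was −0.02 at 48 h and −0.32 to 0.11 on the miRNA arrays. On the normalized scale its mock at 24 h lay 0.35 above the mean of the other PC3 mocks. Its near-identical copy HSPA1B was at −0.39, and signal can be shared between them. HSPA8, the constitutive HSP70, was at −0.47, or 0.43 with median centring, also under that median of all genes. HSPH1, its exchange factor HSP110, was at −0.37, and DNAJA1, a J-domain helper, at −0.36. HSPE1 and HSPD1, the mitochondrial chaperonin pair, were at −0.48 and −0.33. With median centring HSPH1 was at 0.485 and HSPE1 at 0.535, both above that median of all genes. Against the Cy5 channel of the miR-125b-1-3p array HSPH1 was at 0.22 and HSPE1 at −0.17. HSP90AA1 and HSP90AB1 were at −0.15 and −0.16, and BAG3 and HSPB1, strongly heat-induced genes, at 0.01 and −0.06. HSF1 itself was at 0.04.

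The heat shock element bound by HSF1 repeats the letters GAA on alternating strands, and 3 such units in a row, meaning GAA, 2 free bases, TTC, 2 free bases and GAA on either strand, were sought in the same promoters. They stood in 133 of 27305 promoters (0.487%), and in 40 of the 11348 of measured genes (0.352%). Of the 24 measured HSF1 list members 20 (83.3%) had a promoter in the table, and 5 held them (25%), CHORDC1, DNAJA1, HSPA6, HSPA8 and SERPINH1. Their ratios at 24 h were −0.30, −0.36, −0.09, −0.47 and 0.16. HSPA8 held the letters at 230 and at 55 bases before its start, which are in capitals here.
HSPA8 (chr11:123062137-123062386, minus strand): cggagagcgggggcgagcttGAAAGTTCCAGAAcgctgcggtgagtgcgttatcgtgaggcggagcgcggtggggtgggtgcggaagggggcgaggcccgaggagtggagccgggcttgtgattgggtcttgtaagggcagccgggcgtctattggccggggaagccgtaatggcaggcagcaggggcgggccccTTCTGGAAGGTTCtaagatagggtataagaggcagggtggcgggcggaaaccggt

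None of the 64 promoters of the ATF4 pathway list held this element, where 0.352% of those of measured genes did. At that share a set of this size would mostly hold none. A wider list of 95 genes that respond to heat was the public pathway list used by the study. Of its 88 measured genes 65 were below 0, where 45.8% of all measured genes were, and its median was −0.11. Its sign relative to all genes also turned with median centring, to 0.12, and it was positive as well against the Cy5 channel of the miR-125b-1-3p array.

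Chaperones of the endoplasmic reticulum, which the factors XBP1 and ATF6 switch on, had no common direction. Their median was −0.01 over 24 measured members, 13 of them below 0 (54.2%), where 45.8% of all measured genes were. HSPA5, the chaperone BiP, was at 0.00, HSP90B1 at −0.48 and PDIA4 at −0.49. HERPUD1, which takes part in protein disposal and also responds to ATF4, was at 0.81, XBP1 at 0.59 and DNAJB9 at 0.52, while EDEM1 and DNAJC3 were at 0.03 and −0.02. At 48 h HERPUD1 was at 0.15 and XBP1 at 0.10. The mitochondrial chaperones and proteases were near 0 as a list, with LONP1 at 0.45 and HSPA9 at 0.24.

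PIR (chromosome X, 15403058 to 15403117) had raw signals of 1444 in the mock and 1934 with bisamide and a ratio of −0.45. It was at −0.62 at 48 h and ran from −0.73 to 0.66 on the miRNA arrays. With median centring its ratio was 0.34, under the median of all measured genes, which was then 0.45. Against the Cy5 channel of the miR-125b-1-3p array PIR was at 0.11. Of 18 measured genes in a list of PIR and NRF2 targets, 3 were at 0.5 or more, against 1.05% of all measured genes. They were SLC7A11, which ATF4 also controls, FTH1 at 0.77 and HMOX1 at 0.67. On the miRNA arrays FTH1 reached 0.82 and HMOX1 2.74, so both lay inside those ranges, while SLC7A11 reached 0.33. The glutamate-cysteine ligase subunit GCLM, the peroxide-handling SRXN1 and TXNRD1, 3 common NRF2 targets, were at 0.04, −0.07 and −0.11. A list of 11 genes placed downstream of PIR was chosen by the study partly on these samples and is no independent evidence. Its 3 measured members had a median of −0.78, inside the range of −1.18 to −0.62 on the miRNA arrays.

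**Figure D4:**
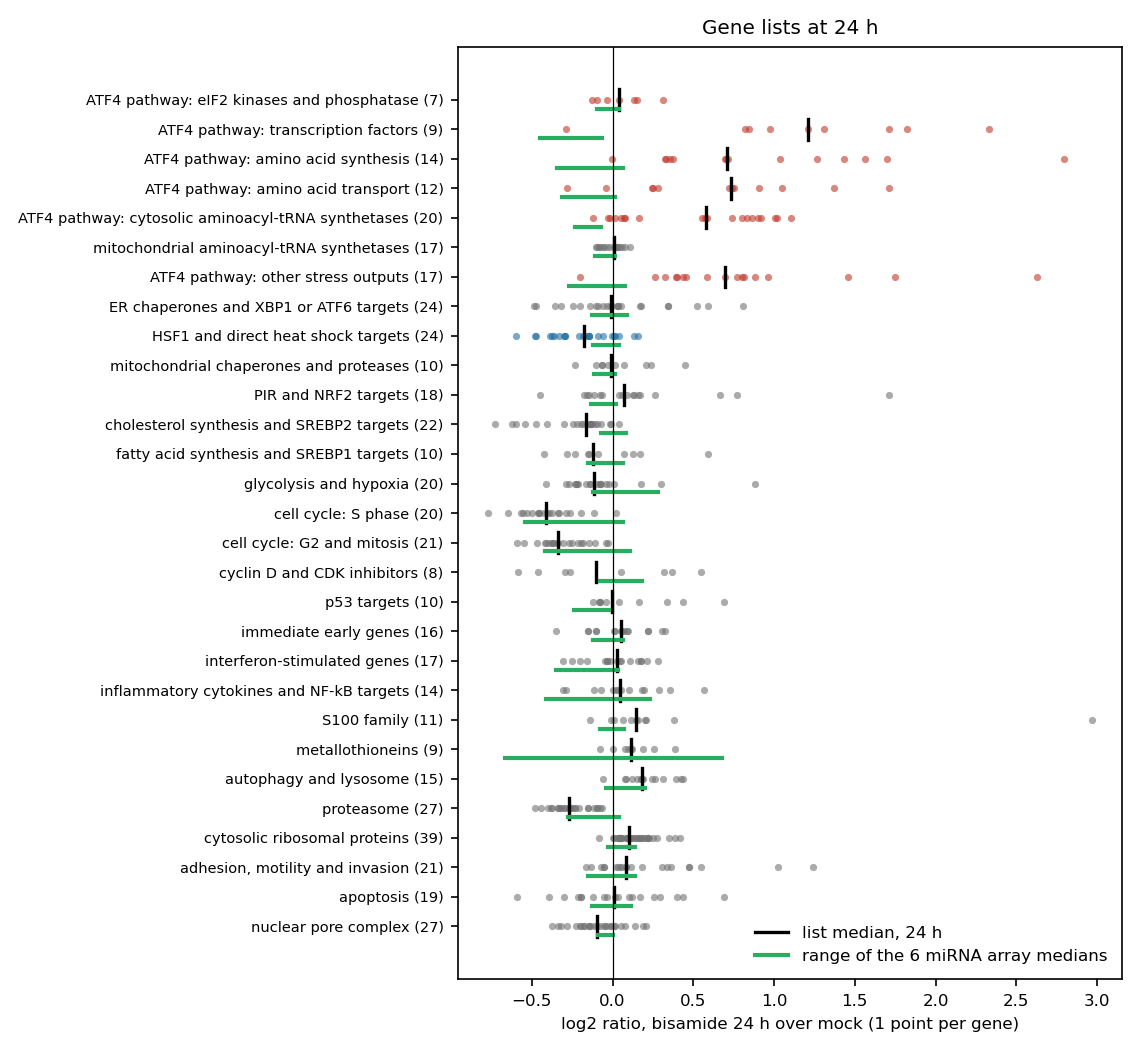
Gene lists at 24 h of bisamide, with the log2 ratio of each measured member as a point, the list median as a black line and, in green, the range of the medians of the same genes on the 6 miRNA arrays. The number of measured members stands in brackets. The medians of the ATF4 pathway lists lie to the right of their green range, that of the eIF2 kinases only just, at 0.0372 against 0.0369. Those of the S100 family, of PIR and NRF2 targets and of p53 targets also lie to the right. To the left lie those of the HSF1 targets, whose sign turns with median centring, and of the cholesterol genes. Those of the nuclear pore genes and of the cyclin D and CDK inhibitor genes lie to the left as well.

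Genes of cholesterol supply, which SREBP2 switches on, lay slightly below other genes. Of 22 measured members 21 were below 0, where 45.8% of all measured genes were. At −0.5 or less were 4 of the 22, against 0.4% of all genes, and 10 lay below all 6 miRNA arrays, against 13.8%. Their median was −0.16, against −0.07 to 0.08 on the miRNA arrays and −0.29 at 48 h. INSIG1, which retains SREBP in the endoplasmic reticulum, was at −0.62, against 0.13 to 0.95 on the miRNA arrays. SQLE, EBP and IDI1, enzymes of the path, were at −0.60, −0.54 and −0.48. Relative to all genes the list stayed below 0 under all 14 settings, from −0.77 against the Cy5 channel of the miR-125b-1-3p array to −0.14 with median centring. In fatty acid synthesis SCD and FASN were at −0.28 and −0.23 and ACSS2 at 0.59.

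Cell cycle genes lay below other genes at 24 h as well, and also on some miRNA arrays. Of 20 measured S phase genes 19 were below 0, where 45.8% of all measured genes were, and 5 were at −0.5 or less, against 0.4%. Their ratios had a median of −0.42. Their median on the miRNA arrays ran from −0.54 to 0.06, so the value at 24 h lay within that range. CCNE2, cyclin E2, was lowest at −0.77, with its second measured probe at −0.29, followed by TYMS at −0.65 and PCNA at −0.57. With median centring TYMS was at 0.30, where the median of all measured genes was 0.45. All 21 genes of G2 and mitosis were below 0, with a median of −0.34 at 24 h and −0.56 at 48 h, and the miRNA arrays ran from −0.42 to 0.11. CDK1 was at −0.59 at 24 h with 1 probe, −0.06 with its second and 0.19 with median centring, and at −0.87 at 48 h. KIF20A was at −0.55 at 24 h and −0.63 at 48 h. PLK1 and CDC20 were at −0.04 and −0.03 at 24 h. CDKN2C was at −0.58 and CDKN2B at 0.55, both inhibitors of the cyclin D kinases. Relative to all genes both lists were below 0 under all 14 settings, at most −0.08 for S phase, against the Cy5 channel of the miR-125b-1-3p array, and −0.07 for G2 and mitosis, with median centring.

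All 27 proteasome genes were below 0, from −0.48 for PSMD11 to −0.07 for PSMD2, where 45.8% of all measured genes were. But relative to all genes the sign of the proteasome median turned with median centring, to 0.13, and against the Cy5 channel of the miR-125b-1-3p array. Their median was −0.27, against −0.27 to 0.04 on the miRNA arrays. Cytosolic ribosomal proteins had a median of 0.10 over 39 genes, within the miRNA arrays' −0.03 to 0.14. The nuclear pore genes were at −0.10 over 27, interferon-stimulated genes at 0.02 over 17 and p53 targets at 0.00 over 10. PMAIP1, the BH3-only protein NOXA, which ATF4 also controls, was at 0.69, and BIRC5, survivin, at −0.59. None of these lists had a member at 1.0 or more, where 0.182% of all measured genes were, so few could be looked for in lists of this size.

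Bisamide at 48 h was on a separate array, and its values are given beside those at 24 h. Across 18378 genes measured on both arrays, the ratio at 24 h was larger by 0.5 or more for 34 (0.185%) and smaller by 0.5 or more for 21 (0.114%). The largest positive difference was of RN7SL1, the RNA of the signal recognition particle, at 0.74 and −1.16, followed by DDIT4, GDF15, TRIB3 and SLC7A11 with differences of 1.18, 1.14, 1.1 and 0.98. On the negative side TRMT2B was at −0.75 and 0.84, APOL6 at 0.06 and 1.25, TSSC2 at −0.12 and 0.75, INHBB at −0.33 and 0.46 and CLMP at −0.43 and 0.36. RN7SL1 ran from −0.24 to 2.09 on the miRNA arrays. The second measured probe of TRMT2B was at 0.01 at 24 h. No repeat of either time was at hand, so time and culture cannot be told apart.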

How the data were processed

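Per the labels, Cy3 mock RNA and Cy5 treated RNA were hybridised to each of 8 arrays, which per the file headers lay on 1 slide. The authors deposited the mean intensity of each spot and its local background median in each channel, read with Agilent Feature Extraction 11.5.1.1, and a log10 ratio from that software, which the deposited series table repeats. Probe positions were printed as the files have them, on GRCh37. From the deposited intensities a log2 ratio was computed here with limma 3.58.1 in R 4.3.3, by normexp correction with an offset of 50 and loess within each array. Control spots and 155 outlier spots of the 24 h array were left out, of 60901 spots of 58201 probes, and no spot was saturated. A gene was read by its probe of highest mean intensity over the 8 arrays and counted as measured when well above background in both channels at 24 h. Genes in 1 channel alone have a bound, from the channels after loess and Aquantile normalization. The background correction and loess were tested on a simulated array built from the mock channel at 24 h. It held changes in bright probes only. Promoters came from RefSeq, GRCh38.p14, through accessions, symbols and synonyms, which matched 23549 genes.

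Groups were taken from the labels. With 1 array no p-value was computed. Named genes were those at 1.0 or more in size and still so less the miRNA median, PIR, HSF1 and ACTL8, up to 4 members of a list, the 5 on each side that differed most from 48 h, and up to 4 transcripts without a usual symbol past 1.5. Further list members, the other genes past 1.0 and the transcripts ENST00000443279, ENST00000433309 and FLJ43315 were named after their values were seen. The array, gene lists, motifs and rules were chosen with earlier results of these data known. Alternatives were other background corrections, median centring, the scanner's ratio, the series table, other filters, the mean over probes, a threshold of 1.5 and other references for the ratio. Some further genes are not reported here.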

Additional observations from a re-analysis of the deposited data

Results flagged for a closer look

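RN7SL1 and TRMT2B had opposite signs at 24 h and 48 h of bisamide, each past 0.5 in size. For RN7SL1 the ratio at 24 h minus that at 48 h was 1.90, from 0.74 and −1.16, with raw mock signals of 19365 at 24 h and 37215 at 48 h and raw signals with bisamide of 73907 and 38064. For TRMT2B the difference was −1.58, from −0.75 and 0.84, with raw mock signals of 175 and 99.0 and raw signals with bisamide of 149 and 319. Each time had 1 array, and neither difference was tested.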

How the results depend on the processing

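No paired analysis was possible because 1 array stands for each group. All alternatives were planned, and the cause of a change was not tested. The counts of higher and lower genes, 35 and 3, were 80 and 55 with plain subtraction, 79 and 42 with an offset of 0, and 95 and 128 with the scanner's ratio, which the series table repeats. Without background correction 6 genes were lower. With median centring, which moved the median of all genes to 0.45, 948 genes were higher. Against the Cy5 channel of the miR-125b-1-3p array the counts were 123 and 292, and less the ratio of that array 58 and 33. At the threshold of 1.5, which admits fewer genes by construction, 13 were higher. The median of the ATF4 pathway list relative to all genes, 0.69, was 0.75 with plain subtraction and with an offset of 0, 0.86 with median centring, 0.78 with the ratio from the scanner, 0.59 with the mean over probes, 0.80 less the median of the 6 miRNA arrays, 0.50 against the Cy5 channel of the miR-125b-1-3p array, 0.79 less its ratio and 0.58 with no filter. The median of the HSF1 target list, −0.19, was −0.25 with the ratio from the scanner, −0.0363 against the Cy5 channel of the miR-125b-1-3p array and 0.0844, of the opposite sign, with median centring. The other values of these 4 results stayed within 1.5 times the count or within the SD of repeated spots.

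All 35 higher genes were above 0 under every setting but that of the Cy5 channel of the miR-125b-1-3p array, where 31 were. There GDF15 turned to −1.37, MMP1 to −0.82, DDIT4 to −0.14 and FAM129A to −0.0564, while COLEC10, BARX1-AS1 and ACTL8 turned to 0.17, 0.18 and 0.0212. Less the ratio of that array C1QTNF5 turned to 0.15. At 1.0 or more remained 29 of the 35 with the mean over probes, 31 less the median of the miRNA arrays, 27 against that Cy5 channel and 28 less its ratio, and all 35 otherwise. Against that Cy5 channel 138 of 154 named genes moved by more than the SD of repeated spots. A further 7, all with ratios past 1.0 in size, counted as turned in sign, and 9 did neither. PIR, whose ratio is smaller, changed sign as well, from −0.45 to 0.11, but stands among the 138. With median centring 153 moved, among them PIR, which went to 0.34, and HSPA1A, from −0.60 to 0.22. The median of all measured genes was then 0.45. The 3428 genes measured in Cy5 alone and the 106 in Cy3 alone have a bound and no ratio.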

Other observations

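Metallothioneins, which bind zinc and copper, had a median of 0.12 over 9 measured genes at 24 h and 0.20 at 48 h. The miRNA arrays ran from −0.67 to 0.67 for the same genes, and MT1X and MT2A were at 0.39 and 0.26 at 24 h. Autophagy and lysosome genes had a median of 0.18 over 15, with SQSTM1 at 0.44, ULK1 at 0.42 and WIPI1 at 0.39. In glycolysis LDHA, PGAM1 and PGK1 were at −0.41, −0.29 and −0.27 and HK2 at 0.30. Immediate early genes had a median of 0.05 over 16, with DUSP5 at 0.33 and JUN at −0.35. Among cytokines CXCL2 was at 0.56 with 1 probe and 0.00 with its second.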
